A study of Mus musculus with 5 samples.

Results

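The Zic genes Zic1, Zic2, Zic4 and Zic5 were read in peak lists of Gfi1 and Lsd1 from Myc and Gfi1 driven mouse medulloblastoma. They are 4 of the 21938 protein-coding genes of GENCODE M21 on chromosomes 1 to 19, X and Y, and they were taken by name. All peaks from 10 kb before to 10 kb after each gene were collected, and because the genes lie in pairs, Zic1 with Zic4 and Zic2 with Zic5, each pair was treated as 1 locus. MG tumors grow from cerebellar neural stem cells of C57BL/6 mice, sorted as Prominin1-positive and lineage-negative, that were infected with retroviruses carrying a stabilized form of Myc and Gfi1 and transplanted into the cerebella of immunodeficient NSG mice. Gfi1 and Lsd1 ChIP were each done on 2 such tumors, called 39 and 41, for 4 libraries in all (2 per factor). Every library thus carries the same 2 transgenes, tumors without Gfi1 were not profiled by ChIP-seq here, and cells of the host may be present in the tissue. MACS peaks were called per library relative to input DNA. An input sample listed with the series is pooled from MGB tumors, which carry Myc and Gfi1b, and it was not analysed here.

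Zic proteins are zinc finger transcription factors related to the Gli proteins of the hedgehog pathway. They act in the dorsal neural tube and in the cerebellum, where Zic1 is a known marker of granule neuron precursors, and loss of ZIC1 and ZIC4 in people is linked to Dandy-Walker malformation of the cerebellum. ZIC2 is a known gene of holoprosencephaly. Zic1 and Zic4, like Zic2 and Zic5, are arranged head to head and transcribed away from each other. Gfi1 is a zinc finger repressor whose SNAG domain recruits Lsd1, a histone demethylase, to DNA.

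On the mouse genome mm10 (GRCm38), Zic1 lies at chr9:91358058-91365810 on the minus strand and Zic4 at chr9:91362413-91389348 on the plus strand. Zic5 lies at chr14:122456795-122465677 on the minus strand and Zic2 at chr14:122475435-122479852 on the plus strand. With 10 kb on each side, the Zic1-Zic4 locus is chr9:91348058-91399348 (51291 bp) and the Zic2-Zic5 locus is chr14:122446795-122489852 (43058 bp).

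The sequences shown here are first the DNA just upstream of 3 Zic starts. After these comes the middle of the 3 sites between genes that held a peak in all 4 libraries. The contrast between the pairs rests on the peaks described below and not on these sequences. For Zic4 the stretch shown lies before the start of Zic4-207, and not at the most upstream start, Zic4-208. Of the 4 members, 3 had an entry in the RefSeq promoter table (GRCm38.p6), and Zic2 had none. Each is written 5′ to 3′ along the strand given, and every CG dinucleotide is in capitals, because DNA rich in CG is the usual form of a promoter that is free of methylation. Upstream sequences stop at the first exon of any protein-coding transcript.
Zic1, chr9:91365811-91366018, minus strand, inside a peak of Gfi1 in tumor 39 and of no other library: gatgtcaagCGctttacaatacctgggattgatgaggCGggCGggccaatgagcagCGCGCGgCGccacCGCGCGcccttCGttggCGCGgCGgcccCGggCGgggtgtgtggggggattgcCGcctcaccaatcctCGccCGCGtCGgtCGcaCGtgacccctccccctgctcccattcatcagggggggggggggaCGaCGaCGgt
Zic4, chr9:91368722-91368811, plus strand, inside no peak of any library: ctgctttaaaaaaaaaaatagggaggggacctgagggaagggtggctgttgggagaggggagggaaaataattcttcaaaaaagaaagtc
Zic5, chr14:122465678-122465908, minus strand, wholly inside a peak in all 4 libraries: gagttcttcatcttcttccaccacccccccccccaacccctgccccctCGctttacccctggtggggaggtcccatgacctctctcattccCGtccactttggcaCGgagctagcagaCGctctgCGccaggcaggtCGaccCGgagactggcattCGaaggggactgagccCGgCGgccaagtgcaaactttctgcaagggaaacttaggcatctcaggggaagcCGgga
Downstream of Zic5, chr14:122453648-122453847, plus strand, wholly inside a peak in all 4 libraries: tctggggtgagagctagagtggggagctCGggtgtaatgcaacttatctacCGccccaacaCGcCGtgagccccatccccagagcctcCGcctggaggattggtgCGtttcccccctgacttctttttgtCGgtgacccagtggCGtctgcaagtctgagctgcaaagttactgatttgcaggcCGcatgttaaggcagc
Between Zic5 and Zic2, chr14:122468389-122468588, plus strand, wholly inside a peak in all 4 libraries: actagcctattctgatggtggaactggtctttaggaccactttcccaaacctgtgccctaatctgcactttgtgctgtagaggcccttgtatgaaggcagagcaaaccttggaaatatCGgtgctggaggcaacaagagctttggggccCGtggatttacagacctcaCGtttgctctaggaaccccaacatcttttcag
Downstream of Zic2, chr14:122482172-122482371, plus strand, wholly inside a peak in all 4 libraries: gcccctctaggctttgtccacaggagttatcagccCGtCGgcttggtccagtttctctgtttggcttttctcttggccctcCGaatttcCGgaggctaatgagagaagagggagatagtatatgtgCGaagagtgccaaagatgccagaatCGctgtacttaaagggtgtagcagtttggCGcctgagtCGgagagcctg

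The lists hold 25078 to 36836 peaks per library and cover 1.77% to 2.53% of the genome. They carry no read counts, so that the depth behind a single peak is unknown. Each peak has a score of at least 50 whose definition is not given with it, so the score is used only as a percentile within its own list, from 0 for the lowest to 100 for the highest, with tied scores placed at their middle rank. Many top peaks are tied at a score of 3100, from 12 peaks in Gfi1 of tumor 41 to 805 in Gfi1 of tumor 39. Libraries of the same tumor did not deviate together. Over 21938 genes, the difference between tumor 39 and tumor 41 in the share of a gene's window inside peaks had a Pearson correlation of -0.200 between Gfi1 and Lsd1, which is across genes, and genes are not independent replicates. In 613 genes (2.79%) a peak at a start was found in Gfi1 of tumor 39 and Lsd1 of tumor 41 only, against 100 genes (0.456%) in the 2 libraries of tumor 39 only, 21 (0.0957%) in those of tumor 41 only and 7 (0.0319%) in Gfi1 of tumor 41 and Lsd1 of tumor 39 only. Zic1 and Zic4 had their higher values in Gfi1 of tumor 39 and Lsd1 of tumor 41 too. The study lists fewer mapped reads for Gfi1 of tumor 39 and Lsd1 of tumor 41 than for the other library of each factor. Whether this pattern goes with library depth, or with an exchange of the tumor numbers of a factor, was not tested.

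The paired loci differed widely. At Zic2-Zic5 the lists held 12 Gfi1 peaks in tumor 39 and 13 in tumor 41, and 10 Lsd1 peaks in each tumor. Peaks covered 67.0% and 64.5% of that locus for Gfi1 and 69.7% and 66.1% for Lsd1, in tumors 39 and 41. All 4 values lie close together, and the factors overlap. At Zic1-Zic4 the lists held 8, 1, 0 and 4 peaks in the order Gfi1 tumor 39, Gfi1 tumor 41, Lsd1 tumor 39, Lsd1 tumor 41. They covered 18.1%, 1.63%, 0% and 6.68% of that locus, so that the libraries differed widely. In every library the Zic2-Zic5 locus was covered more, by 48.9 to 69.7 percentage points. The mean difference was 60.2 points ± 8.65 (SD, n = 4), higher in 4 of 4 libraries. In an exact two-sided permutation test that flips the sign of each library, p was 0.125, the smallest value that 4 libraries allow, so that this design cannot reach 0.05. The libraries share tumors and are not 4 independent units. By tumor the mean difference was 59.3 points in tumor 39 and 61.2 in tumor 41, and over 2 tumors the same exact permutation test gives p = 0.50, again its smallest value.

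The Zic2-Zic5 value is high for the genome as well. Each protein-coding gene with 10 kb on either side had a median of 3.23% to 4.24% of its bases inside peaks, depending on the library, and the 95th percentile was at 32.5% to 46.0%. The Zic2 window was covered to 70.1% and 58.1% by Gfi1 and to 71.6% and 70.9% by Lsd1 in tumors 39 and 41. That of Zic5 was covered to 65.0% and 62.0% by Gfi1 and to 68.3% and 63.2% by Lsd1. Both genes thus lay above the 95th percentile in all 4 libraries, and between 0.442% and 1.66% of genes were covered as much. The windows of Zic2 and Zic5 overlap, as do those of Zic1 and Zic4. Values within a pair thus share bases and peaks and are not independent. For Zic1 the window was covered to 17.7% and 3.02% by Gfi1 and to 0% and 10.1% by Lsd1. The Zic4 window gave 19.8% and 1.78% for Gfi1 and 0% and 7.30% for Lsd1. Gfi1 in tumor 39 and Lsd1 in tumor 41 lay above the median of all genes for both, whereas Gfi1 in tumor 41 and Lsd1 in tumor 39 lay below it. When the genome was cut into adjoining windows as long as the Zic2-Zic5 locus, 20 of 63287 (0.0316%) were covered as much or more in each of the 4 libraries. Of 53129 windows as long as the Zic1-Zic4 locus, 3.33% were covered as much in Gfi1 of tumor 39, 22.4% in Gfi1 of tumor 41 and 10.8% in Lsd1 of tumor 41, where the median window was covered to 0%.

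**Figure D1:**
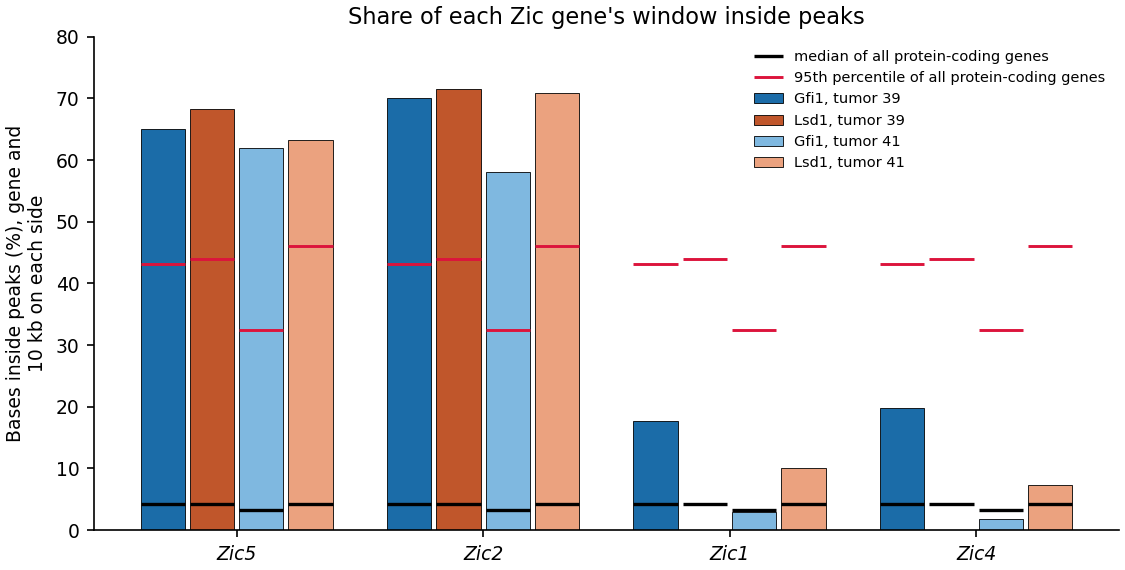
Bars give the percent of bases inside peaks for each Zic gene with 10 kb on either side (vertical axis), by library; black lines mark the median and red lines the 95th percentile of the 21938 protein-coding genes in the same library. Zic2 and Zic5 stand between 58.1% and 71.6%, above the red line in all 4 libraries, and Zic1 and Zic4 stay below it in all 4. The windows within each pair overlap.

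Peaks of the libraries that shared at least 1 bp were joined into sites. The Zic2-Zic5 locus held 9 sites, of which 8 had a peak in all 4 libraries. The last of these 8, at the start of the neighbouring gene Gm10837, lies mostly beyond the window. Inside the window all 4 libraries share only 24 bp of it. The remaining site, chr14:122487036-122488031, had a peak in both libraries of tumor 39 only, at percentiles of 23.5 for Gfi1 and 2.6 for Lsd1. The Zic1-Zic4 locus held 8 sites, of which 5 were found in 1 library, 2 in 2 libraries, 1 in 3 libraries and 0 in 4. Every Zic1-Zic4 site had a peak in Gfi1 of tumor 39. Without Lsd1 of tumor 39, 1 Zic1-Zic4 site was common to the other libraries. Base by base, 49.3% of the Zic2-Zic5 locus (21208 bp) lay inside peaks of all 4 libraries and 19.9% inside none. For Zic1-Zic4 these shares were 0% and 81.9%.

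**Figure D2:**
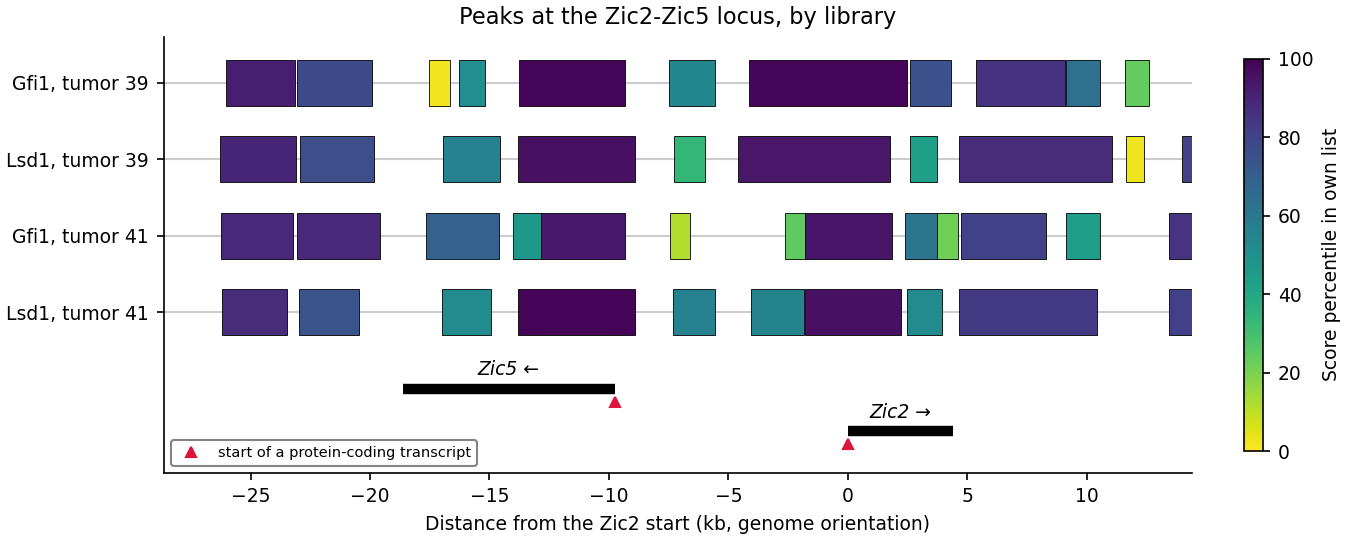
Boxes are the peaks of each library along the Zic2-Zic5 locus, in kb from the Zic2 start in genome orientation, coloured by score percentile within the library's own list; black bars are the genes, arrows their direction and triangles the starts of protein-coding transcripts. The 4 rows repeat the same blocks, and the darkest boxes, at percentiles of 93.5 to 99.2, stand over the Zic5 and Zic2 starts.

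The highest peaks of the Zic2-Zic5 locus lay over the starts of its 2 genes. At the start of the protein-coding Zic5 transcript the peak had a Gfi1 score of 3100 in tumor 39 and of 910.34 in tumor 41, and Lsd1 scores of 1605.90 and 3100. As percentiles these are 98.6, 93.5, 96.0 and 99.2. The peaks were 3516 to 4932 bp wide and reached from within the gene to its upstream side, as in chr14:122461658-122466119 for Gfi1 in tumor 39. At the start of the protein-coding Zic2 transcript the scores were 3100 (Gfi1, tumor 39), 997.26 (Gfi1, tumor 41), 1388.69 (Lsd1, tumor 39) and 2250.73 (Lsd1, tumor 41). Their percentiles were 98.6, 94.9, 94.0 and 95.9. The Zic2 peaks, 3646 to 6620 bp wide, also held a start of 2610035F20Rik, a non-coding gene that runs divergent from Zic2. Peaks over these paired starts cannot be told apart. In tumor 41 another 2610035F20Rik start lay in a separate peak, at a percentile of 24.6 for Gfi1 and 55.2 for Lsd1. The order of Zic2 and Zic5 changed with the library and was tied in Gfi1 of tumor 39, so that neither gene ranked first.

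Among genes with a peak within 1000 bp of a start, the median percentile of the highest such peak was 77.4 to 82.5 by library. Zic2 and Zic5 lay above it in all 4 libraries, and 2.84% to 9.61% of all protein-coding genes had a start peak as high. For Zic1 the highest start peak was at 63.5 and 13.3 for Gfi1 and 30.9 for Lsd1 in tumor 41, with no such peak for Lsd1 in tumor 39. For Zic4 the values were 57.4, 13.3 and 30.9, again with no peak for Lsd1 in tumor 39. All of these values lie below the median of genes that have a start peak. The peaks at 13.3 and 30.9 are the same for both genes.

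**Figure D3:**
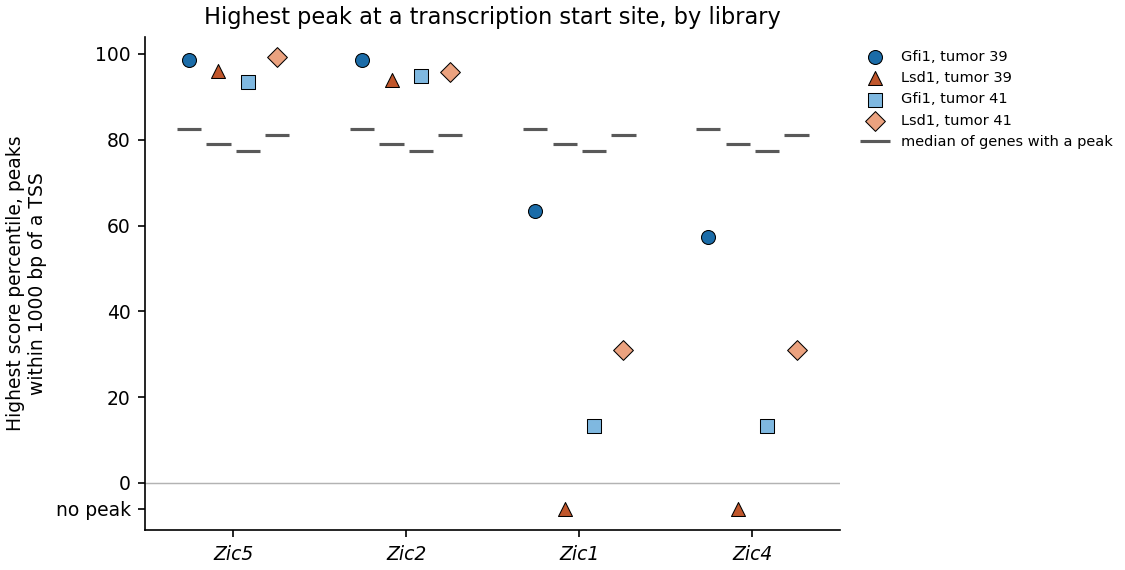
Points give the score percentile within its own list of the highest peak within 1000 bp of any start of each Zic gene (vertical axis), by library, and grey lines the median over genes that have such a peak. Zic5 and Zic2 lie between 93.5 and 99.2, above the lines, and Zic1 and Zic4 lie below them or have no peak.

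A peak within 1000 bp of a start is common in these lists. It was found for 65.0% of protein-coding genes in Gfi1 of tumor 39, 54.3% in Gfi1 of tumor 41, 58.5% in Lsd1 of tumor 39 and 61.7% in Lsd1 of tumor 41. The members with such a peak numbered 4, 4, 2 and 4 of 4 in that order. Zic2 and Zic5 had a peak in all 4 libraries, as did 53.1% of genes, so that their presence alone is close to the background. Of the members 0 had no start peak in any library, against 33.6% of genes. Zic1 and Zic4 had a start peak in every library but Lsd1 of tumor 39, a pattern shared by 0.574% of genes. A peak was called high confidence when it was in the upper 20% of the score in replicate 1 (tumor 39) and had at least 50% of its length in upper 20% peaks of replicate 2 (tumor 41). Such a peak at a start was found for 22.9% of genes with Gfi1, 25.9% with Lsd1 and 19.5% with both factors. Zic2 and Zic5 had it for both factors, and Zic1 and Zic4 for neither. With no score cutoff, 4 of 4 members had a replicated Gfi1 start peak, against 52.4% of genes, and 2 of 4 a replicated Lsd1 start peak, against 57.4%. For Zic1 and Zic4 the replicated Gfi1 peak was the same peak, counted for both genes where they overlap. Their start peak in Gfi1 of tumor 41 was likewise a single shared peak, and so was their highest start peak in Lsd1 of tumor 41.

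Which start of a gene the peak lay at differed between the pairs. Zic1 has 3 annotated transcripts. At its protein-coding starts, chr9 positions 91365768 and 91365810, only Gfi1 in tumor 39 had a peak over the start, chr9:91365662-91366340, at a percentile of 17.2. The higher peak of that library, at 63.5, lay next to it inside the gene. The nearest peak of Lsd1 in tumor 41 ended 150 bp short of the first of these starts, and that of Gfi1 in tumor 41 was 3006 bp away. Lsd1 in tumor 39 had its nearest peak 884012 bp away. The calls at Zic1 for Gfi1 in tumor 41 came from the start of Zic1-203, a transcript with no coding sequence inside the gene, 292 bp from the peak.

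Zic4 has 12 annotated transcripts, and their starts behaved differently. The most upstream one, Zic4-208 at chr9 position 91362413, lies inside Zic1. It was inside a peak in 3 libraries, at percentiles of 55.7 (Gfi1, tumor 39), 13.3 (Gfi1, tumor 41) and 30.9 (Lsd1, tumor 41). This is the site shared by most libraries at the locus, chr9:91361351-91362866. Since Zic1 and Zic4 overlap here, the peak cannot be assigned to either gene. None of the libraries had a peak within 1000 bp of the protein-coding starts Zic4-207, Zic4-204, Zic4-210 and Zic4-209, at chr9 positions 91368812 to 91371213, where the nearest peak was 2472 bp away. The start of Zic4-201, at 91378642, lay inside a peak of Gfi1 in tumor 39 at a percentile of 57.4 and of no other library.

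**Figure D4:**
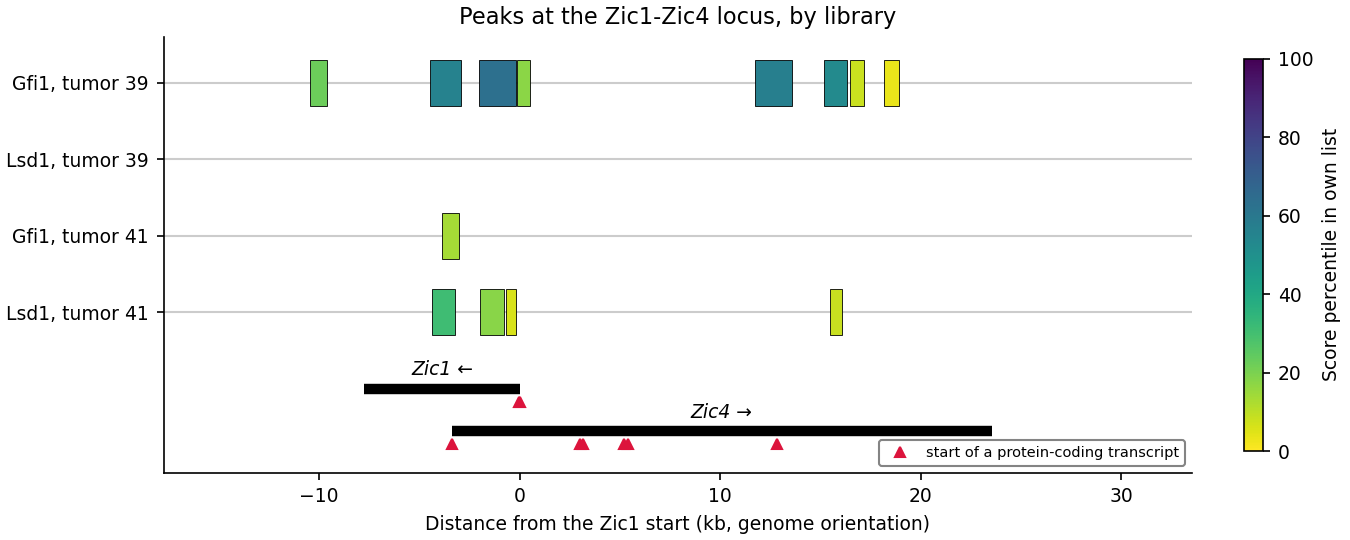
Boxes are the peaks of each library along the Zic1-Zic4 locus, in kb from the Zic1 start in genome orientation, with colours, bars and triangles as in the map of the Zic2-Zic5 locus. Gfi1 of tumor 39 has 8 peaks, Lsd1 of tumor 39 has none, and the only position with a box in 3 rows lies inside Zic1 at the most upstream Zic4 start.

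At Zic2-Zic5 both annotated starts of each gene lay inside peaks in all 4 libraries. The second Zic2 transcript, Zic2-202, a retained intron form, starts at chr14 position 122478100, in peaks at percentiles of 75.1 and 61.1 for Gfi1 and 44.1 and 52.6 for Lsd1. The second Zic5 transcript, Zic5-202, starts at 122460021, in peaks at 50.4 and 69.4 for Gfi1 and 55.6 and 52.3 for Lsd1. These values are lower than those at the protein-coding starts in every library.

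The peaks of the Zic2-Zic5 locus were also wider. Across its 45 peaks the width ran from 779 to 6620 bp with a median of 2539 bp, against a median of 1443 to 1765 bp over whole lists. The 13 peaks of the Zic1-Zic4 locus were 507 to 1874 bp wide with a median of 843 bp. Of the 45 Zic2-Zic5 peaks, 21 were in the upper 20% of the score of their list, and 10 lay under the 50th percentile. Of the 13 Zic1-Zic4 peaks, 0 were in the upper 20% and 9 lay under the 50th percentile. At Zic2-Zic5 the peaks in the upper 20% were 1953 bp wide or more, and those under the 50th percentile were at most 1422 bp wide.

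**Figure D5:**
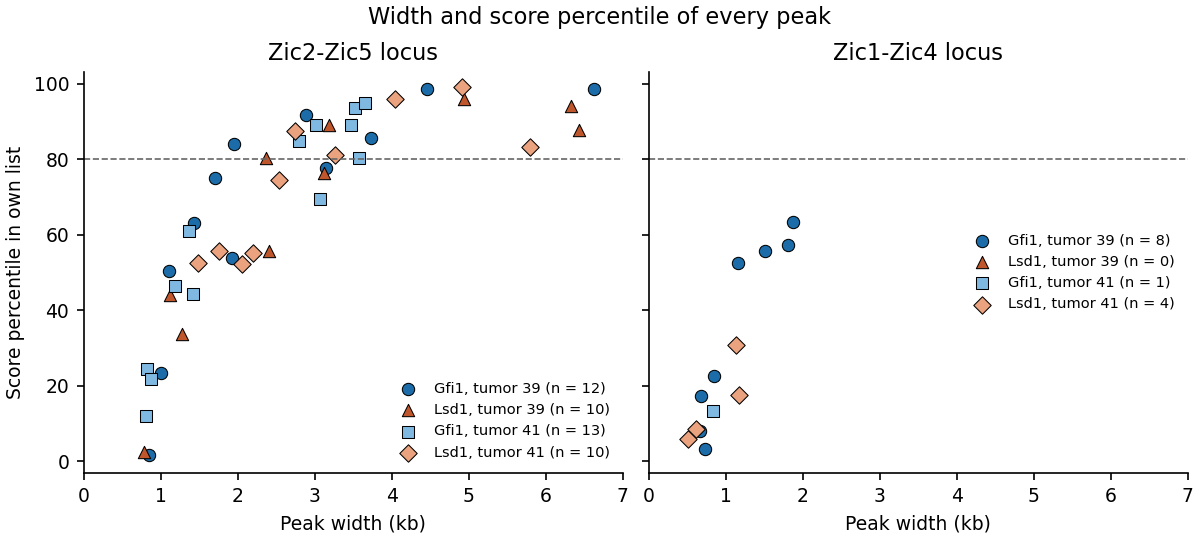
Each point is 1 peak, with its width in kb on the horizontal axis and its score percentile within its own list on the vertical axis, for the Zic2-Zic5 locus (left, 45 peaks) and the Zic1-Zic4 locus (right, 13 peaks); the dashed line marks percentile 80. On the left 21 points lie above the line and widths reach 6620 bp, and on the right all points lie under it and widths reach 1874 bp.

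Away from the starts, the Zic2-Zic5 locus held 3 sites between genes that were present in all 4 libraries. Downstream of Zic5, the site chr14:122452365-122455843 had percentiles of 77.7 and 89.0 for Gfi1 and 76.3 and 74.6 for Lsd1. Between the 2 genes, chr14:122467929-122469864 was weaker, at 53.8 and 12 for Gfi1 and 33.7 and 55.7 for Lsd1. Downstream of Zic2, chr14:122480074-122486505 had its highest peaks at 85.5 and 80.2 for Gfi1 and 87.6 and 83.2 for Lsd1, and here Lsd1 had a single peak of 6425 bp in tumor 39 and of 5790 bp in tumor 41 where Gfi1 had separate peaks. At the edges of the locus, sites at the starts of Gm5089 (87.5 to 91.7) and Gm10837 (80.2 to 84.9) were present in all 4 libraries as well. Gm5089 reaches past the window and Gm10837, at chr14:122490586-122492121, lies wholly beyond it. These 2 genes were named after their values had been seen. Of the 45 peaks at the locus, 17 had their midpoint in an exon, 10 in an intron and 18 between genes.

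High-confidence peaks numbered 5 for Gfi1, of 4386 in the genome, and 5 for Lsd1, of 5181, at the Zic2-Zic5 locus. The study reports more peaks for each factor, so these genome totals are not the study's own set. For each factor the 5 peaks lay at the Gm5089 start, the Zic5 start, the Zic2 start, downstream of Zic2, and at the Gm10837 start. The peak at the Gm10837 start lies mostly beyond the window. The Zic1-Zic4 locus held 0 for either factor. In the 50 kb on each side of Zic1-Zic4 there were 0 peaks in any library. This is usual for the genome, as the median window of 51291 bp was covered to 0% in each library. Of the 50 kb on either side of Zic2-Zic5, 4.10% to 8.73% lay inside peaks, far less than within that locus. The side after Zic2-Zic5 includes the rest of the peaks at the Gm10837 start.

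Gfi1 and Lsd1 were compared at each locus, which asks whether the repressor and its partner cover the genes alike. At Zic2-Zic5 the covered share was 65.8% ± 1.81 (SD, n = 2) for Gfi1 and 67.9% ± 2.51 (SD, n = 2) for Lsd1. The difference of 2.17 points, Lsd1 over Gfi1, had p = 0.667 in an exact two-sided permutation test of 2 against 2 libraries, where the smallest p is 0.333. Within tumors Lsd1 was higher by 2.67 points in tumor 39 and 1.67 in tumor 41. At Zic1-Zic4 the share was 9.86% ± 11.6 (SD, n = 2) for Gfi1 and 3.34% ± 4.72 (SD, n = 2) for Lsd1. Lsd1 was lower by 18.1 points in tumor 39 and higher by 5.05 in tumor 41, and the mean difference of -6.52 points had p = 0.667 in the same exact permutation test. Without Gfi1 of tumor 39 the difference turned to 1.71 points. Neither difference passed 0.05, which 2 against 2 libraries cannot reach, and tests of this size cannot show that the factors cover the loci alike.

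What the shared DNA of the Zic2-Zic5 locus has in common was described from the reference sequence. Bases inside peaks of all 4 libraries had a GC content of 54.6% and 43.8 CG dinucleotides per kb, against 37.0% and 5.94 per kb in bases inside no peak. Exons of that locus were covered to 68.2% to 76.5%, introns to 62.3% to 69.3% and the DNA between genes to 59.8% to 70.0%, with 45.8, 29.4 and 19 CG per kb. The Zic1-Zic4 locus had 21.9 CG per kb as a whole, against 28.3 for Zic2-Zic5, and its uncovered bases had 14.7. Among the printed promoters, the order by CG count was not the order by number of libraries with a peak. Over 300 bases around the RefSeq start, Zic1 had 31 CG, a number reached by 10.6% of the 32851 promoters in the table, Zic5 had 15 (34.6%) and Zic4 had 8 (48.6%). The promoter richest in CG, that of Zic1, was inside a peak in 1 library, and that of Zic5 in all 4. Zic2 had no RefSeq entry and is missing from this comparison. Over the longer stretches shared by all 4 libraries at the Zic5 and Zic2 starts, CG reached 73.1 and 81.1 per kb. Whether CG density goes with peaks was not tested.

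The Gfi1 recognition core AATC was counted on both strands. In the promoter windows it occurred 4 times for Zic1, 2 times for Zic4 and 0 times for Zic5, and 73.1% of all promoters hold it at least once. The longer AAATCA, which contains it, was absent from all 3 windows and is held by 14.0% of promoters, and CG is held by 94.6%. In the bases of the Zic2-Zic5 locus that all 4 libraries shared, AATC occurred 4.90 times per kb, against 8.51 in bases inside no peak and 7.58 over the Zic1-Zic4 locus. AATC is made mostly of A and T, and GC content was 54.6% in the shared bases and 37.0% in those inside no peak. The densities were not adjusted for base composition, so they do not show that AATC is depleted or enriched in peaks. Within the cores common to all libraries, the density was 7.26 and 7.72 per kb in the sites downstream of Zic5 and between the genes, 5.15 in the site downstream of Zic2, and 3.41 and 2.83 at the Zic5 and Zic2 starts, where CG reached 73.1 and 81.1 per kb. AAATCA occurred 2 times each in the cores downstream of Zic5 and downstream of Zic2, and 1 time at the Zic5 start. It occurred 0 times in the core between the genes and in that at the Zic2 start. A match is a description of letters and not a measured binding site.

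Related zinc finger genes and the genes listed for the granule lineage also varied widely in their start peaks. In covered share, however, none of them reached Zic2 or Zic5 in any library. The highest value was 62.1%, for Gli1 with Gfi1 in tumor 39, where Gfi1 in tumor 41 gave 20.4%. Among granule lineage genes the highest was 43.6%, for Nhlh1 with Lsd1 in tumor 41. Of 6 related zinc finger genes (Gli1, Gli2, Gli3, Glis1, Glis2 and Glis3), 6, 4, 5 and 5 had a start peak in Gfi1 of tumors 39 and 41 and Lsd1 of tumors 39 and 41. Gli1, Gli2, Glis2 and Glis3 had it in all 4 libraries, and Gli1 and Gli2, effectors of hedgehog signalling, had a high-confidence peak of both factors. Gli1 reached percentiles of 97.4 and 95.8 for Gfi1 and 99 and 99.2 for Lsd1, each above the 95th percentile of its list. Gli3 had a start peak only for Gfi1 in tumor 39, at 4.2. Of 12 granule lineage transcription factors (Atoh1, Pax6, Barhl1, Barhl2, Meis1, Meis2, Neurod1, Nhlh1, Nhlh2, Lhx9, Etv1 and Eomes), 10, 4, 6 and 10 had a start peak in the same order. Pax6, Barhl1 and Etv1 had it in all 4 libraries, only Etv1 with high confidence, and Nhlh2 in none. Atoh1, the factor that specifies granule precursors, together with Barhl2, Meis2 and Lhx9 had a start peak in Gfi1 of tumor 39 and Lsd1 of tumor 41 only. That is 4 of 12 genes, with 2.79% of all genes and 0 of the 6 related zinc finger genes showing this pattern. Both the list and the pattern were chosen with results of these data known, so the count is a description only.

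The genes most like each member were named by the smallest Euclidean distance over 8 values, the start percentile (0 where there was no peak) and the covered share of the window in each of the 4 libraries. For Zic1 they were Msx1 (distance 15.2), En1 (16) and En2 (16), homeobox genes of development, and for Zic4 they were Gata3 (14.4), H2-Q10 (16.5) and En1 (16.6). Msx1, En1, En2 and H2-Q10 had no start peak in Gfi1 of tumor 41 or Lsd1 of tumor 39. For Zic2 the nearest were Pxn (7.70), Bcl9l (8.31) and Tlcd1 (8.97), and for Zic5 they were Gnb2 (6.24), Wdr24 (7.52) and Rpl13a (8.98). All 6 had start peaks at percentiles of 89.1 or more in the 4 libraries and windows covered to 56.0% or more. The genes named here were chosen by these same 8 values. Their likeness to the members in peaks and coverage therefore follows from the choice and is a description only.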

How the data were processed

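Gfi1 and Lsd1 were profiled by ChIP-seq in 2 MG tumors. The authors aligned reads to mm10 with BWA 0.6.2, removed duplicate reads and ran MACS, with its default settings, on each library with input chromatin as control. The deposited lists give position and score per peak, and the score, which the labels do not define, was used only as a percentile. The study ranked by enrichment, and whether the score measures it is not stated. Replicate numbers follow tumor numbers, so libraries of a tumor are paired by the labels, although their deviations over genes correlated at -0.200.

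The members and the gene lists were chosen with earlier results of these data known. Genes and transcription start sites were taken from GENCODE M21, and promoter sequences from RefSeq GRCm38.p6. Genes named were the members, genes inside or at the edges of the windows, related zinc finger and granule lineage genes, and the 3 genes nearest each member. One item covered by this rule is not reported here. Site joining, coverage, start peaks and high-confidence calls were tested on simulated data. Exact permutation tests were run over libraries. Alternatives varied the window, score cutoff, overlap, start set and libraries. Tools were Python 3.11.15, numpy 2.4.6, pysam 0.24.0 and samtools 1.23.1. Depth is unknown from the lists, although the study gives mapped reads per library.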

Additional observations from a re-analysis of the deposited data

How the results depend on the processing

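The contrast between the loci kept its direction in every alternative run, with Zic1-Zic4 minus Zic2-Zic5 at -64.2 points with 5 kb flanks, -23.8 with 50 kb flanks, -44.0 with upper 20% peaks only, and -64.0 to -57.1 when each library was left out. For Zic2-Zic5 the covered share was 71.6% (Gfi1) and 73.2% (Lsd1) with 5 kb flanks, 26.2% and 26.7% with 50 kb flanks, and 41.7% and 46.2% with upper 20% peaks, since the windows and peaks counted change by construction. Sites in all 4 libraries at Zic2-Zic5 numbered 5 with upper 20% peaks, and 8 to 9 when a library was left out. At Zic1-Zic4 they numbered 0 to 1, and members with a start peak in every remaining library 2 to 4, both higher values coming without Lsd1 of tumor 39. Replicated Gfi1 start peaks rose to 4 members with no score cutoff, where 52.4% of all genes had one. Zic1 and Zic4 were then counted through the same peak. Lsd1 minus Gfi1 at Zic1-Zic4 was 0 with upper 20% peaks, as no peak is left, and ranged from -14.7 to 1.71 with a library left out, the sign turning without Gfi1 of tumor 39. With the tumor as a replicate block the difference was -6.52 points (exact permutation p = 1.00) at Zic1-Zic4 and 2.17 (exact permutation p = 0.50) at Zic2-Zic5. The negative correlation of the tumor differences led to a crossed pairing, chosen after seeing the data, under which Lsd1 was lower in both pairs at Zic1-Zic4 (exact permutation p = 0.50) and of mixed sign at Zic2-Zic5 (exact permutation p = 1.00), and neither pairing of 2 tumors can pass 0.05. Ranked by width, the Zic5 start peaks stood at a mean percentile of 94.6 for Lsd1. The lists carry no depth, and 2 tumors limit every test.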
